A study of Cricetiscus sungorus with 24 samples.

Results

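The genes described here encode the actin, myosin and tubulin cytoskeleton of the kidney. They were chosen by symbol: alpha and beta tubulins (Tuba, Tubb), the actins Actb, Actg1 and Acta2, alpha-actinins (Actn), actin-related proteins (Actr), subunits of the Arp2/3 complex (Arpc), myosin light and heavy chains (Myl, Myh), tropomyosins (Tpm), beta thymosins (Tmsb), cofilins (Cfl), profilins (Pfn) and capping protein (Capz). The rule found 66 genes. All 66 were among the 15842 genes listed in experiment 2, and 55 of them were among the 9681 genes listed in experiment 1. The symbol rule also took in 3 genes that belong to none of these families, namely Cflar (an inhibitor of apoptosis), Mylip (a ubiquitin ligase) and Actrt3 (a testis actin-related protein).

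Actin filaments grow by the addition of ATP-bound monomers, which profilin delivers and beta thymosins hold in reserve. Cofilin severs old filaments, capping protein closes their growing ends, and the Arp2/3 complex starts branches. In kidney tubule cells actin fills the core of the brush border and forms a belt at cell junctions, where non-muscle myosin II pulls on it, while microtubules of alpha and beta tubulin carry membrane proteins to the apical surface and build the primary cilium.

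The tissue was whole kidney of Djungarian hamsters (Phodopus sungorus), with no genetic change named in the labels. Experiment 1 used adult males in 3 groups of 4, one kept in a long photoperiod of 16 h of light per day (LP) and the others held in a short photoperiod of 8 h of light for 12 weeks (SP12wk) or 28 weeks (SP28wk). Experiment 2 used adult females that had all spent 8 weeks in the short photoperiod, 6 injected daily for 3 days with vehicle (SAL, a mixture of dimethyl sulfoxide and saline) and 6 with 18 µg of ovine prolactin in that vehicle (PRL). The study asked how the kidney changes over a simulated year, and whether prolactin, a pituitary hormone that is low in a short photoperiod, is enough to change it. Sex, flow cell, depth, photoperiod history and injection all differed between the experiments and cannot be told apart, so that no test compares them. Each library came from 1 animal, and p-values set a group difference against the spread between animals, estimated over all groups of an experiment.

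A library of experiment 1 held 15688 to 57585 counts over the best-covered transcript of each gene, so that 1 count was worth 17.4 to 63.7 CPM, the count scaled by the library total. In experiment 2 a library held 174053 to 756523 counts, and 1 count was worth 1.32 to 5.75 CPM. Levels given as CPM are a gene's count on its transcript with the highest total, divided by that library total and not by transcript length, because a nanopore read can span a whole cDNA. The library kit is called direct cDNA in the methods but PCR-cDNA in the labels. If PCR was used, reads are not independent molecules, and counting errors and limits set by a count of 0 are then too small. Hamster reads were aligned to a mouse reference, and a level therefore also depends on how similar the sequences are. LP replicate 2 stood apart from the other 11 libraries of experiment 1: ribosomal protein genes took 10.4% of its counts against 14.4% to 22.8%, and respiratory chain subunits 3.01% against 6.66% to 11.7%. Of 6 proximal tubule markers 5 were listed in each experiment, without Kap, and as a sum they were present in all libraries. In experiment 1 the collecting duct genes Aqp2 and Scnn1a and the podocyte genes Nphs1 and Podxl were not listed. The 2 markers listed for collecting duct had 4 counts there, and the 2 listed for podocytes had 5. In whole kidney, fewer cells of a type and less RNA per cell cannot be told apart.

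The cytoskeleton genes took 1.23% to 1.98% of the counts of a library in experiment 1, with LP replicate 2 at the top, and 1.23% to 1.49% in the other 11 libraries. In experiment 2 they took 0.926% to 1.14% in SAL and 1.02% to 1.25% in PRL. A few genes carried most of this. The 5 best-covered genes held 56.7% of the cytoskeleton counts in experiment 1 and 60.0% in experiment 2, whereas 18 genes in experiment 1 and 12 in experiment 2 had under 10 counts over all libraries. Counts were enough for a test in 44 of the 55 genes in experiment 1 and in 55 of the 66 in experiment 2.

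In the males, Actg1 (cytoplasmic gamma actin) had the highest median level at 3203 CPM, followed by Tmsb4x (thymosin beta 4) at 2028 CPM and Actb (cytoplasmic beta actin) at 1605 CPM. Actg1 stood above Tmsb4x in 11 of 12 libraries, and Actb stood above the next gene, the myosin light chain Myl6, in 12 of 12. Below them the order was loose, since Myl6 exceeded Myl12b in 7 of 12 libraries and Myl12b exceeded the alpha tubulin Tuba1b in 5 of 12. In the females Actg1 was again at the top, with a median of 1549 CPM, but the regulatory light chain Myl12b came next at 1443 CPM and exceeded Actg1 in as many libraries as it fell below it. There the first large step was between the sixth gene, Myl12a, and the seventh, Myl6, which differed in the same direction in 12 of 12 libraries.

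**Figure D1:**
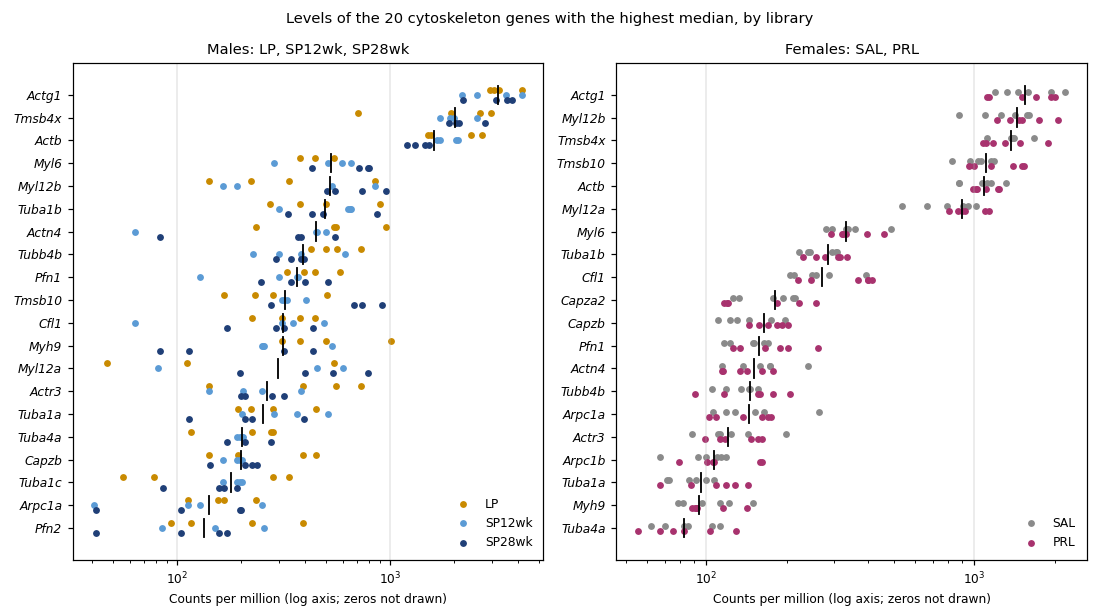
Levels of the 20 cytoskeleton genes with the highest median in each experiment, on a log axis of CPM (the count scaled by the library total). Each point is a library, coloured by group, and the black tick is the median over the 12 libraries. In the females 6 genes down to Myl12a (median 903 CPM) stand above Myl6 (332 CPM), and in the males Actg1, Tmsb4x and Actb stand above the same gene (527 CPM).

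How much a gene varied between animals of a group was compared with the counting error expected from its counts. Over the 30 genes with at least 20 counts in experiment 1, the ratio of the observed to the expected variance had a median of 1.47, beside 1.49 for all 1973 genes with as many counts. It was highest for Myl12a (5.36), Tmsb4x (4.62), Actg1 (4.56) and Myl12b (4.24). The ratio was under 1 for several genes, whose animals differed by no more than counting error. Among them were Tubb4b (0.953), Capza2 (0.788), Pfn1 (0.733), Tpm3 (0.646) and Capzb (0.642), the lowest. In experiment 2 the median over 50 genes was 1.81, beside 1.42 for 8529 genes. Actg1 stood highest at 33.8 on 6644 counts, followed by Myl12b (16.6 on 6473 counts) and Tmsb4x (15.9 on 5891 counts). At the same relative spread this ratio rises with the counts of a gene, and the genes compared were matched only for the minimum of 20 counts. It therefore does not show that cytoskeleton genes, or Actg1, varied more between animals than other genes of like counts.

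No cytoskeleton gene passed an adjusted p of 0.05 in any comparison with all libraries in the fit. In SP12wk against LP 0 of 44 passed, beside 0.0197% of all 5086 genes tested. In SP28wk against SP12wk 0 of 44 passed, beside 0.138%, and in SP28wk against LP 0 of 44, beside 0.216%. PRL against SAL gave 0 of 55, beside 0% of 10696 genes, and an F test over the 3 photoperiod groups gave 0 of 44, beside 0.275%. Genes with an unadjusted p under 0.05 in the edgeR quasi-likelihood test numbered 2, 1, 5, 1 and 4 in the same order, beside 7.27%, 6.1%, 8.61%, 4.88% and 7.55% of all genes tested. All of those in the 4 pairwise comparisons were on the higher side, where the share of all genes was 4.58%, 4.6%, 6.69% and 2.54%. None was on the lower side, where it was 2.69%, 1.49%, 1.93% and 2.34%. DESeq2 called 0 of them in each comparison as well, with 1, 0, 2, 1 and 2 at an unadjusted p under 0.05. Both comparisons with LP share the same 4 LP libraries. Actr2, counted in both and in the F test, had no count in LP and entered the test only through the short-photoperiod groups.

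The exception came with 1 library left out. Without LP replicate 4, the myosin light chain Myl12a passed in SP28wk against LP with an adjusted p of 0.00198 in edgeR, and in the F test with an adjusted p of 0.0095. Its values are given below.

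The median log2 fold change of the cytoskeleton genes was 0.06 in SP12wk against LP, beside 0.00 for all genes tested. It was 0.09 in SP28wk against SP12wk, beside 0.16, and −0.01 in SP28wk against LP, beside 0.18. These values depend on the scaling. With DESeq2 size factors the median of all genes in SP28wk against LP moved from 0.18 to −0.02 and that of the cytoskeleton genes from −0.01 to −0.28. The split into higher and lower genes was 22 and 22 with edgeR, 17 and 27 with DESeq2, and 14 and 30 in plain CPM. In SP28wk against SP12wk the same splits were 25 and 19, 19 and 25, and 17 and 27, and in SP12wk against LP they were 23 and 21, 22 and 22, and 18 and 26. TMM scaling factors were 0.954 to 1.41 in LP and 0.770 to 0.975 in SP28wk, so that a fitted fold change can differ from the ratio of CPM means. PRL against SAL had a median of 0.11, beside 0.03 for all genes, with 31 genes higher and 24 lower (36 and 19 in plain CPM).

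**Figure D2:**
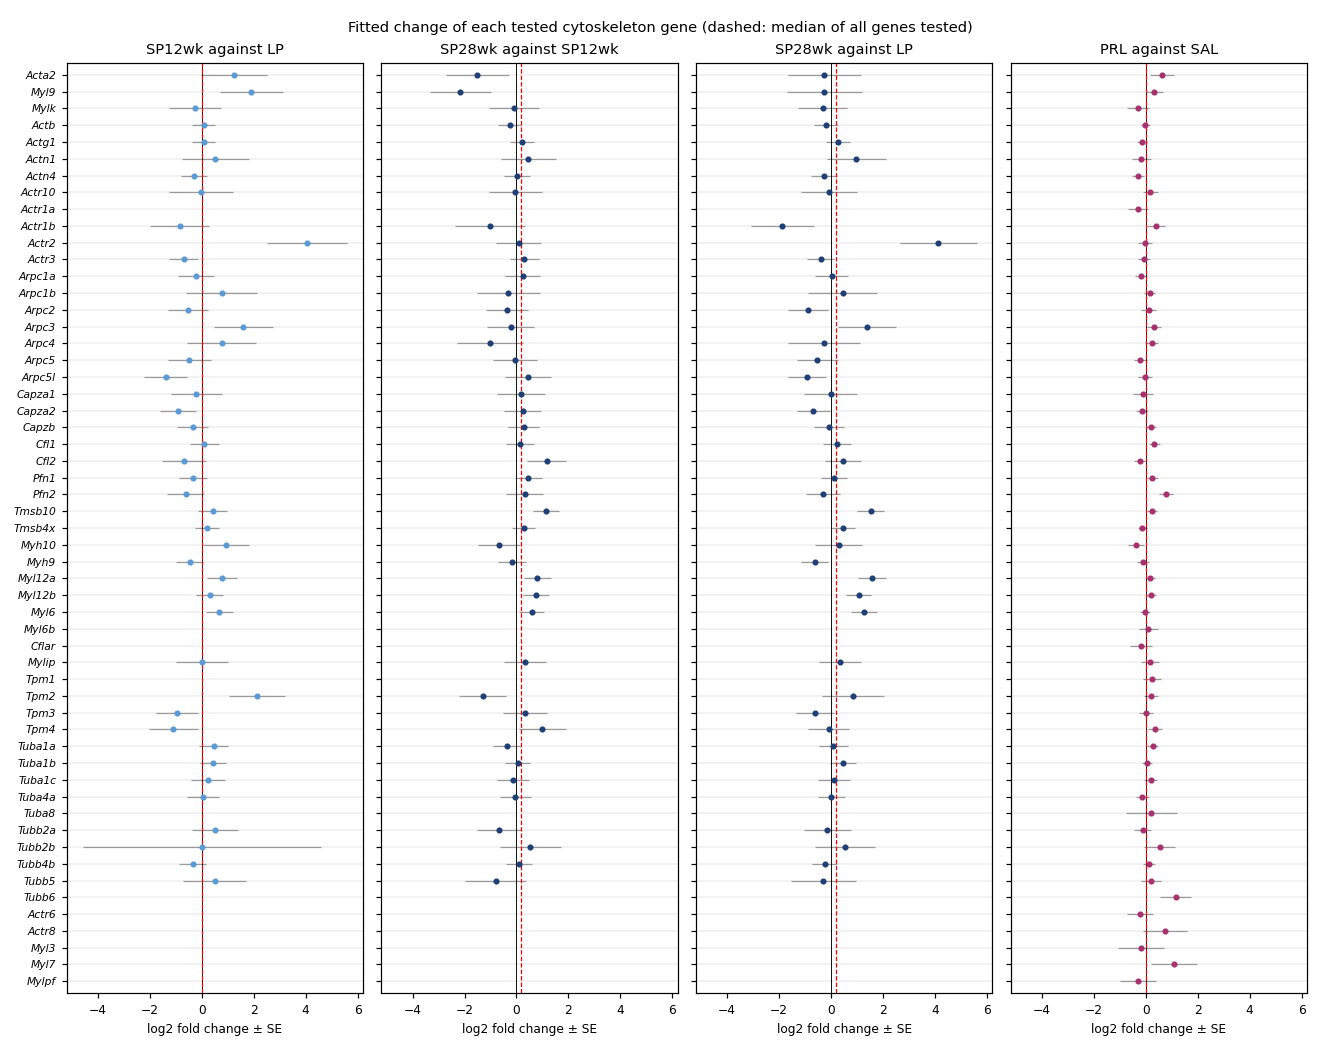
Fitted log2 fold change (point) and its standard error (bar) of each cytoskeleton gene tested, 1 row per gene, in the 4 comparisons, with a solid line at 0 and a dashed line at the median of all genes tested. Tmsb10, Myl12a, Myl12b and Myl6 lie to the right of 0 in SP28wk against LP, and the points of Actr2 against LP, which had no count there, depend on the fit and are no bound.

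Actb and Actg1 encode the cytoplasmic actins, proteins that differ by a few residues at one end. In LP, Actb was at 2399, 2692, 1554 and 1515 CPM, in SP12wk at 2085, 2039.8, 1656 and 1724 CPM, and in SP28wk at 1304, 1203, 1457 and 1528 CPM. In CPM, which leaves out the TMM factors, every SP28wk library lay below every SP12wk library. Of the SP28wk libraries 3 also lay below every LP library, and the highest, at 1528 CPM, lay just above the lowest LP library. Actb was the only gene of the 44 whose SP28wk and SP12wk CPM did not overlap, beside 3.38% of all genes tested. The gap does not outlast TMM scaling. SP28wk replicate 4, with a factor of 0.770, then lies above SP12wk replicate 3, with a factor of 1.003. The fitted difference was small against its error, with a log2 fold change of −0.26 ± 0.45 (SE, n = 4 and 4; adjusted p = 0.980), and −0.19 ± 0.45 in SP28wk against LP (adjusted p = 0.956). Actg1 was at 3246, 4150.4, 2941 and 3069 CPM in LP, at 4169, 3506, 2560.0 and 2176 in SP12wk and at 3755, 3527, 2199.6 and 3161 in SP28wk, so that the 3 groups overlapped throughout.

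Actg1 had more counts than Actb in 12 of 12 male libraries and in 11 of 12 female libraries. Its share of the counts of both was 62.6% ± 4.35 (SD, n = 4) in LP, 61.6% ± 4.57 in SP12wk and 69.1% ± 6.80 in SP28wk. It was 59.8% ± 6.28 (SD, n = 6) in SAL and 58.1% ± 6.50 in PRL, and all groups overlapped. Both listed Actg1 transcripts carried the same counts in experiment 1, and adding all transcripts raised the LP share to 76.96%. The sources used here do not say how reads were shared between the nearly identical actins, which leaves the split between them uncertain. In the females Actb had a lowest, median and highest level of 874, 1091 and 1315 CPM in SAL and of 989.8, 1062 and 1237 in PRL. Actg1 ran from 1192 through 1522 to 2187 CPM in SAL and from 1118 through 1599 to 1996 in PRL. All PRL animals lay inside the SAL range for Actb, and 2 lay below it for Actg1, with log2 fold changes of −0.02 ± 0.17 for Actb and −0.14 ± 0.19 for Actg1 (SE, n = 6 and 6; adjusted p = 0.998 for both).

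Beta thymosins bind actin monomers and keep them out of filaments. Tmsb10 (thymosin beta 10) had the smallest p of the cytoskeleton genes in SP28wk against LP. Its levels were 282, 505, 166 and 233 CPM in LP, 327, 319, 402 and 311 in SP12wk, and 277, 913, 743 and 677 in SP28wk. Of the SP28wk libraries 3 stood above all 8 others, and replicate 1 stood among the lower ones. The log2 fold change was 1.53 ± 0.52 against LP (SE, n = 4 and 4; adjusted p = 0.290) and 1.12 ± 0.50 against SP12wk (adjusted p = 0.740). Leaving out each library in turn gave 1.27 to 1.74 against LP, and the value without LP replicate 2 was 1.72.

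Tmsb4x, the more abundant thymosin in the males, showed no such separation. It was at 706, 2636, 1942 and 2991 CPM in LP, 1717, 1912, 2560.0 and 2006 in SP12wk and 1897, 2779.9, 2114 and 2049 in SP28wk. The short-photoperiod libraries lay inside the wide LP range, which LP replicate 1 opened at the lower end. The share of Tmsb10 in the counts of both thymosins was 14.9% ± 9.94 in LP, 14.3% ± 1.19 in SP12wk and 22.1% ± 6.26 in SP28wk (SD, n = 4). In the females it was 42.7% ± 4.63 in SAL and 48.4% ± 6.95 in PRL (SD, n = 6), and no male library reached the lowest female one. Sex, flow cell, depth, photoperiod history and injection differ between the experiments, as does the Tmsb10 transcript used. Their parts in this contrast cannot be told apart, and it was not tested. Between SAL and PRL, Tmsb10 differed by a log2 fold change of 0.23 ± 0.19 and Tmsb4x by −0.13 ± 0.18 (SE, n = 6 and 6; adjusted p = 0.998 for both).

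**Figure D3:**
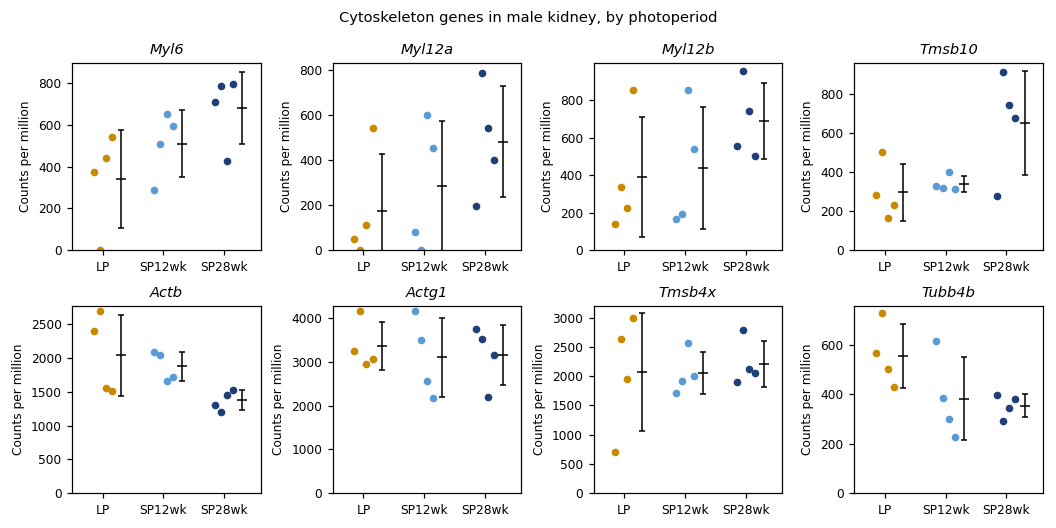
CPM of 8 cytoskeleton genes in the male libraries, 1 point per animal, with the group mean and SD as a bar beside the points (cut at 0). Tmsb10 is high in 3 of 4 SP28wk animals, and Myl12a and Myl12b are low in some LP and SP12wk animals and high in others. Actb of SP28wk lies below SP12wk in these values, which leave out the TMM factors.

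Profilins load actin monomers with ATP, and Pfn2 gave the smallest p of the cytoskeleton genes in the prolactin experiment. Pfn2 had a lowest, median and highest level of 33.8, 41.2 and 67.3 CPM in SAL and of 53.9, 76.98 and 138 in PRL. The groups overlapped between 53.9 and 67.3 CPM, where the lowest PRL animals met the highest SAL animals. The log2 fold change was 0.79 ± 0.26 (SE, n = 6 and 6; adjusted p = 0.447), and 0.59 to 0.89 with each library left out in turn. Pfn1, the main profilin, exceeded Pfn2 in 12 of 12 female libraries and in 11 of 12 male libraries. In the males the mean of Pfn2 was 206 ± 134 CPM in LP against 123 ± 108 in SP12wk and 119 ± 59.2 in SP28wk (SD, n = 4), and its groups overlapped.

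Cofilins sever filaments. Cfl1, the non-muscle form, had a lowest, median and highest level of 205, 252 and 393 CPM in SAL and of 221, 384 and 416 in PRL, a log2 fold change of 0.33 ± 0.21 (SE, n = 6 and 6; adjusted p = 0.998). PRL animals fell into 4 above 360 CPM and 2 below 250 CPM, inside and above the SAL range. Cfl2, the form best known from muscle, had 35 counts in experiment 1 and was at 63.9 ± 71.4 CPM in SP12wk and 125 ± 32.2 in SP28wk (SD, n = 4), with a log2 fold change of 1.16 ± 0.76 between them (adjusted p = 0.979). Cfl1 exceeded Cfl2 in 11 of 12 male libraries, with 1 tie, and in all 12 female libraries.

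The Arp2/3 complex of Actr2, Actr3 and the Arpc subunits starts branched actin networks. Of its 9 genes tested in experiment 1, 1 had an unadjusted p under 0.05 in SP12wk against LP, beside 7.27% of all genes tested. In SP28wk against LP it was also 1, beside 8.61%, and the gene was Actr2 in both. Actr2 had no count in any of the 4 LP libraries. It had 2, 2, 1 and 2 counts in SP12wk and 3, 0, 3 and 4 counts in SP28wk. Actr2 therefore met the filter of 4 of 12 libraries only through the groups where it was high. Its p-values against LP, and its gap between SP12wk and LP, follow in part from that filter and are no support for a difference. A total of 0 in LP allows up to 3 counts, which sets a limit for that group. Over the group, Actr2 was at 2.03 times that limit in SP12wk and at 1.95 times in SP28wk. These ratios cover the counting error of LP alone, leave out that of the 7 and 10 counts observed, and are no lower bound. The adjusted p of Actr2 in edgeR was 0.577 in SP12wk against LP and 0.379 in SP28wk against LP. In the females Actr2 was at 53.4 ± 13.8 CPM in SAL and 59.6 ± 28.6 in PRL (SD, n = 6), far above 1 count, and did not separate the groups.

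None of the other 8 Arp2/3 genes tested in experiment 1 had an unadjusted p under 0.05. Arpc3 was at 47.0, 0, 55.5 and 0 CPM in LP and at 81.7, 63.7, 100.4 and 56.5 in SP12wk, on 2 and 7 counts. With Actr2 it was 1 of the 2 cytoskeleton genes whose SP12wk and LP values did not overlap, beside 2.67% of all genes, and the gap between 55.5 and 56.5 CPM was smaller than the worth of 1 count. Arpc5l was lower in SP12wk, at 58.3 ± 31.7 CPM against 178 ± 68.9 in LP (SD, n = 4), a log2 fold change of −1.40 ± 0.82 (adjusted p = 0.670). Actr3, the best-covered member of the complex in the males, was at 453 ± 250.4 CPM in LP, 245 ± 102 in SP12wk and 250.4 ± 56.2 in SP28wk. As a sum, the Arp2/3 genes had a lowest, median and highest level of 653, 696 and 740 CPM in SAL and of 621, 716 and 877 in PRL. Of the closely related subunits Arpc1a and Arpc1b, Arpc1b gave 10% of the counts of both in the males, on 5 counts against 45. In the females it gave 41.4%, with a ratio of Arpc1b to Arpc1a of 0.256 to 1.47 between libraries. Sex, flow cell, depth, photoperiod history and injection differ between the experiments, and this contrast was not tested.

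Capping protein, alpha-actinins and tropomyosins cap, bundle and coat filaments. The capping subunits summed to 624.9 ± 387 CPM in LP, 351 ± 53.0 in SP12wk and 353 ± 87.7 in SP28wk (SD, n = 4). All 3 of them (Capza1, Capza2, Capzb) had fitted folds below 0 against LP in both comparisons, with none past an unadjusted p of 0.05, and LP itself ran from 233 to 1122 CPM. Capza2 was the main alpha subunit, with 12 of 12 female libraries above Capza1. Actn4, the main non-muscle alpha-actinin and a known podocyte gene, was at 235, 953, 555 and 544 CPM in LP, 449.6, 63.7, 502 and 452 in SP12wk and 553, 83.0, 371 and 382 in SP28wk. A single library was low in each short-photoperiod group. In the females it was at 166 ± 42.7 CPM in SAL and 141 ± 25.3 in PRL (SD, n = 6).

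Tpm2, a tropomyosin rich in muscle, had 3, 10 and 5 counts in LP, SP12wk and SP28wk. Its log2 fold change in SP12wk against LP was 2.13 ± 1.07 (SE, n = 4 and 4; adjusted p = 0.637), with 4.59 when LP replicate 4 was left out and 1.71 when SP12wk replicate 2 was left out. Tpm3 and Tpm4, the main non-muscle forms, had 28 and 24 counts in experiment 1 and did not separate the groups. In the females all 4 tropomyosins had fitted folds above 0 in PRL against SAL, with none past an unadjusted p of 0.05. Tpm4 had a lowest, median and highest level of 25.6, 38.4 and 52.0 CPM in SAL and of 40.2, 45.7 and 62.0 in PRL, a log2 fold change of 0.36 ± 0.26 (SE, n = 6 and 6; adjusted p = 0.998).

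Non-muscle myosin II is built of 2 heavy chains (Myh9, Myh10 or Myh14), 2 essential light chains (Myl6 or Myl6b) and 2 regulatory light chains (Myl12a or Myl12b), whose phosphorylation switches on contraction. Of its 5 genes tested in SP28wk against LP, 0 passed an adjusted p of 0.05 with all libraries. The light chains Myl6, Myl12a and Myl12b had an unadjusted p under 0.05 on the higher side, where 6.69% of all genes tested stood, and light and heavy chains were not tested against each other. Myl6 was at 376, 0, 444 and 544 CPM in LP, 286, 510.0, 653 and 593 in SP12wk and 711, 788, 428 and 799 in SP28wk. Of the SP28wk libraries 3 stood above every LP library. The log2 fold change was 1.25 ± 0.50 (SE, n = 4 and 4; adjusted p = 0.490). The zero was in LP replicate 2, and without that library it was 0.78 ± 0.46.

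Myl12a was at 47.0, 0, 111 and 544 CPM in LP, 81.7, 0, 602 and 452 in SP12wk and 198, 788, 543 and 399 in SP28wk. LP and SP12wk each fell into libraries near 0 to 111 CPM and libraries above 450 CPM, whereas no SP28wk library was below 198 CPM. The log2 fold change in SP28wk against LP was 1.58 ± 0.55 (adjusted p = 0.325). It depended on LP replicate 4, the only LP library with more than 2 counts of Myl12a. Without it the fold was 3.46 ± 0.77, which passed the test (adjusted p = 0.00198), and without LP replicate 2 it was 1.10 ± 0.53 (adjusted p = 0.882).

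Myl12b followed the same libraries. It was at 141, 337, 222 and 855 CPM in LP, 163, 191, 853 and 537 in SP12wk and 553, 954, 743 and 504 in SP28wk. LP replicate 4 and SP12wk replicates 3 and 4 were in the SP28wk range, and the other 5 libraries of LP and SP12wk were at 337 CPM or less. The log2 fold change in SP28wk against LP was 1.06 ± 0.49 (adjusted p = 0.538), and 1.97 without LP replicate 4 (adjusted p = 0.0572). Myl12a and Myl12b encode nearly the same protein and may share reads, so that their likeness is not independent. Myl12a had fewer counts than Myl12b in all 24 libraries and gave 39.9% of the counts of both in the males and 38.4% in the females.

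The heavy chain Myh9 was at 376, 1009.5, 499 and 311 CPM in LP, 531, 255, 251 and 254 in SP12wk and 316, 83.0, 114 and 434 in SP28wk. The highest value was that of LP replicate 2, and the groups overlapped. Myh9 gave 91.4% ± 10.2 of the heavy chain counts in LP, 76.0% ± 7.94 in SP12wk, 76.5% ± 12.4 in SP28wk (SD, n = 4), 78.4% ± 3.71 in SAL and 82.5% ± 4.57 in PRL (SD, n = 6), where Myh10 made up nearly all of the rest and Myh14 had 1 count in all. Summed over transcripts, which may count a read more than once, the share of Myh9 was 72.5% in LP and 38.3% to 45.4% in the other groups, so that its majority depended on the transcript used. Between SAL and PRL the light chains differed little, with log2 fold changes of 0.19 ± 0.18 for Myl12b, 0.18 ± 0.19 for Myl12a and −0.03 ± 0.20 for Myl6 (SE, n = 6 and 6; adjusted p = 0.998 for each). Myl12b had a lowest, median and highest level of 874, 1338 and 1597 CPM in SAL and of 1218, 1484 and 2045 in PRL. The groups overlapped from 1218 to 1597 CPM.

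Acta2, Myh11, Myl9 and Mylk belong to the contractile apparatus of smooth muscle, which in kidney lies mainly in vessel walls. Except for Mylk, with 17 counts, each had under 10 counts in the males, where Acta2 had 1, 3 and 1 counts in LP, SP12wk and SP28wk, Myh11 0, 0 and 2 counts, and Myl9 1, 5 and 1 counts. Myl9 had the largest fitted fall in SP28wk against SP12wk, a log2 fold change of −2.16 ± 1.17 (adjusted p = 0.902), on those 6 counts. In the females Acta2 had a lowest, median and highest level of 3.20, 8.94 and 18.3 CPM in SAL and of 7.91, 13.99 and 23.4 in PRL, a log2 fold change of 0.63 ± 0.45 (SE, n = 6 and 6; adjusted p = 0.998). Summed over Acta2, Myh11, Tagln, Des and Actg2, with Cnn1 listed only in the females, smooth muscle markers ran from 0 to 277 CPM in LP, 0 to 170 in SP12wk and 85.7 to 347 in SP28wk, and from 86.4 to 128 in SAL and 87.4 to 150.2 in PRL. The part of these cells in the values of Tpm2, Myl9 and Acta2 was not tested. Myosins of striated muscle were almost absent. Of 21 listed for the family 1 was found in the males (Mylpf, 3 counts) and 5 in the females, with 42 counts in all.

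On the transcript with the highest total, Tuba1b had more counts than Tuba1a, Tuba1c and Tuba4a in all 24 libraries. Summed over transcripts its share of alpha tubulin counts fell to 26.8% in LP and 37.1% in SAL, and the mean of Tuba4a in SAL, at 144 CPM, then exceeded that of Tuba1b, at 124 CPM. On that transcript the share of Tuba1b was 41.3% ± 7.47 in LP, 42.8% ± 7.14 in SP12wk and 48.9% ± 4.35 in SP28wk (SD, n = 4), and 53.7% ± 3.76 in SAL and 52.7% ± 5.24 in PRL (SD, n = 6). The coding sequences of Tuba1a, Tuba1b and Tuba1c are close to each other, which leaves their split uncertain. Summed, the alpha tubulins were at 1225 ± 545 CPM in LP, 1289 ± 272 in SP12wk and 1079 ± 449 in SP28wk, and no member passed an unadjusted p of 0.05 in any comparison. In the females the sum was 499.97 ± 57.0 CPM in SAL and 549 ± 84.7 in PRL (SD, n = 6).

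Among beta tubulins Tubb4b, a form found in ciliated and other epithelia, gave 80.0% ± 8.06 of the counts in LP, 71.4% ± 13.5 in SP12wk, 75.0% ± 11.5 in SP28wk (SD, n = 4), 72.7% ± 6.91 in SAL and 72.0% ± 9.09 in PRL (SD, n = 6). Tubb4b was at 564, 729, 499 and 427 CPM in LP, 613, 382, 301 and 226 in SP12wk and 395, 290.4, 343 and 382 in SP28wk. In CPM without TMM factors every SP28wk library of Tubb4b lay below every LP library. It was the only cytoskeleton gene with such a gap in that comparison, beside 3.3% of all genes tested. After TMM scaling the log2 fold change was only −0.25 ± 0.50 (SE, n = 4 and 4; adjusted p = 0.956). Tubb2a came next, at 11.1% ± 9.87 of beta tubulin counts in LP and 11.6% ± 3.47 in SAL. The neuronal form Tubb3 had 2 counts in the males and 1 in the females.

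In the females Tubb6, a beta tubulin of low level, had the second smallest p in PRL against SAL. It had a lowest, median and highest level of 2.601, 3.48 and 8.11 CPM in SAL and of 3.35, 7.50 and 19.9 in PRL. The whole difference rested on 32 counts, and 2 PRL animals near 19.8 CPM stood above the rest. The log2 fold change was 1.15 ± 0.58 (SE, n = 6 and 6; adjusted p = 0.998).

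**Figure D4:**
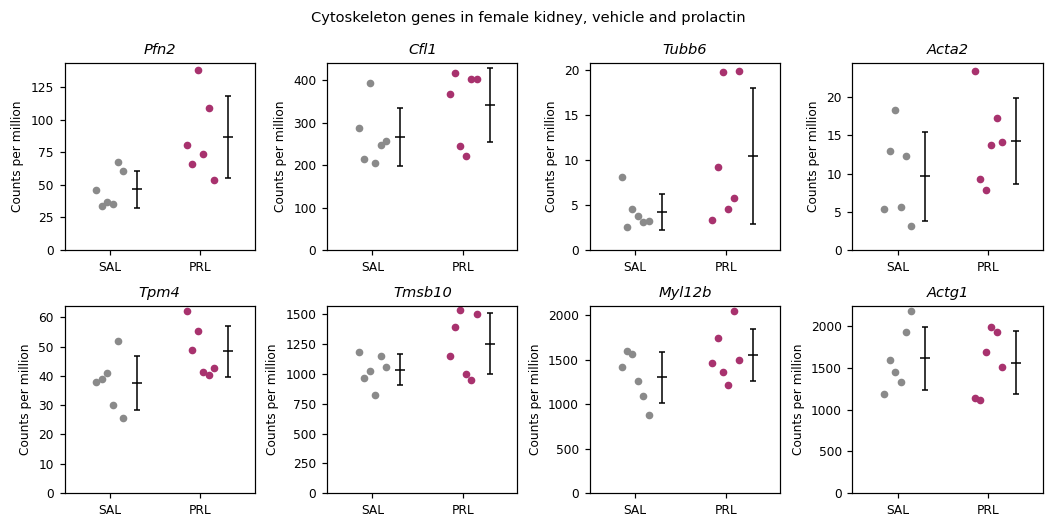
CPM of 8 cytoskeleton genes in the female libraries, 1 point per animal, with the group mean and SD as a bar beside the points. Pfn2 overlaps between 53.9 and 67.3 CPM, and the ranges of SAL and PRL also overlap for the other 7 genes.

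The actin-related proteins Actr1a, Actr1b and Actr10 belong to dynactin, the adaptor of the dynein motor. They had 22 counts in the males and summed to 79.4 ± 22.2 CPM in SAL and 88.1 ± 23.9 in PRL (SD, n = 6). Actr5, Actr6 and Actr8, which sit in chromatin remodelling complexes, had 4 counts in the males and 57 in the females. Cflar, Mylip and Actrt3 together were at 40.4 ± 10.8 CPM in SAL and 43.4 ± 10.8 in PRL, and Mylip at 91.3 ± 60.6 in LP, 70.9 ± 68.0 in SP12wk and 79.0 ± 77.8 in SP28wk (SD, n = 4).

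**Figure D5:**
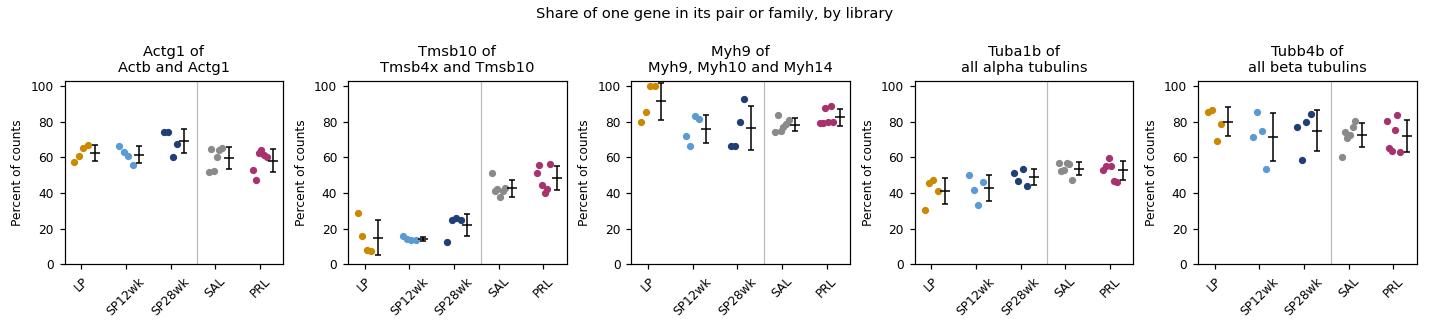
Share of the counts of a pair or family held by 1 named gene, in percent, 1 point per library with the group mean and SD beside it. The grey line separates the male groups from the female groups. The share of Tmsb10 lies between 7.23% and 28.6% in the males and between 37.6% and 56.1% in the females, whereas the Tubb4b shares of all groups overlap. Males and females also differ in flow cell, depth, photoperiod history, injection and the Tmsb10 transcript used.

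Other genes of the cytoskeleton were taken from lists of actin regulators, unconventional myosins, intermediate filaments, microtubule partners and the chaperonin CCT, 112 genes in all. Of the 75 tested in experiment 1 and the 98 tested in experiment 2, 0 passed an adjusted p of 0.05 in any comparison in edgeR. At an unadjusted p under 0.05, 2 were lower in SP12wk than in LP, 5 were higher and 1 lower in SP28wk than in SP12wk, 0 differed between SP28wk and LP, and 4 were higher and 1 lower in PRL than in SAL. The shares of all genes tested were 7.27%, 6.1%, 8.61% and 4.88% in the same order. The median log2 fold changes of the lists together were −0.14, 0.14, 0.01 and 0.09 in that order.

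Eps8, which caps and bundles actin in microvilli, was at 309 ± 158 CPM in LP, 31.4 ± 40.5 in SP12wk and 121 ± 87.1 in SP28wk (SD, n = 4). Its log2 fold change was −2.50 ± 0.78 in SP12wk against LP (adjusted p = 0.392) and 1.76 ± 0.81 in SP28wk against SP12wk (adjusted p = 0.740). Cct5, a subunit of the chaperonin that folds actin and tubulin, was at 216 ± 78.7 CPM in LP, 38.5 ± 53.3 in SP12wk and 151 ± 76.1 in SP28wk (adjusted p = 0.5997 and 0.777). In SP28wk against SP12wk the edgeR p was smaller for 3 other genes. Tagln had a log2 fold change of 1.65 ± 0.73 and Stmn1, at 0 CPM in SP12wk, of 3.23 ± 1.44. Map4, at 0 CPM in SP28wk, went the other way, at −3.30 ± 1.34 (adjusted p = 0.734, 0.740 and 0.617). Among the intermediate filaments of simple epithelia, Krt8 was at 93.8 ± 18.0 CPM in PRL and 58.2 ± 26.4 in SAL (SD, n = 6), a log2 fold change of 0.66 ± 0.26 (adjusted p = 0.729). Its partner Krt18 was at 20.7 ± 12.7 CPM in PRL and 9.22 ± 8.09 in SAL, a log2 fold change of 1.08 ± 0.47 (adjusted p = 0.941). Sptan1 and Myo1c were also higher in PRL, by 0.66 ± 0.31 and 0.76 ± 0.36, and Kif5b was lower, at −0.63 ± 0.30 (adjusted p = 0.993 for each in edgeR). Krt8 and Krt18 are abundant in collecting duct epithelium. Of its markers Aqp2, Aqp3, Scnn1a and Atp6v1b1, 3 of 4 were higher in PRL, with a median log2 fold change of 0.51. An unadjusted p under 0.05 on the higher side was met by 2 of them in edgeR, beside 2.54% of all genes tested. Higher in PRL were also 3 of 4 markers of thick limb and distal tubule, 4 of 5 of proximal tubule and 1 of 4 of endothelium. None of these had an unadjusted p under 0.05. The summed level of the collecting duct markers overlapped, from 38.4 to 173.6 CPM in SAL and from 35.6 to 143.6 in PRL. The part of any cell type in the keratin values was not tested.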

How the data were processed

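Kidney cDNA of 24 Djungarian hamsters was sequenced on nanopore flow cells, 1 per experiment. The methods name base calling with Guppy, adapter removal with Porechop, selection of long reads with Filtlong, and alignment of the hamster reads to the mouse RefSeq genome assembly with Minimap2, and the labels also name Salmon. The deposited values are estimated counts per mouse transcript and library, which the authors did not normalise. The tool that made them is not stated.

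For each gene the transcript with the highest total was used, and counts were rounded to whole numbers for tests. A gene entered the test when 4 of 12 libraries of experiment 1, or 6 of 12 of experiment 2, held at least 1 count of it. Tests were run with edgeR 4.0.16 in R 4.3.3, by TMM scaling and the quasi-likelihood test over all groups of an experiment, with Benjamini-Hochberg adjustment over all genes tested. DESeq2 1.42.0, sums over transcripts, other filters, a replicate block and leaving out each library were alternatives. Non-overlap and shares were taken from CPM and counts without TMM factors. Libraries held 15688 to 57585 and 174053 to 756523 counts, and limits set by 0 counts cover only the counting error of the group with 0 counts.

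Genes were named when they had the most counts of their role, up to 2 with at least 20 counts in experiment 1 or up to 3 with at least 50 in experiment 2, or were among the 5 smallest p of a comparison, together with Acta2 and Myh11. Genes outside the families were named only as markers of a cell type or when among the 2 smallest p of their list in a comparison. Not all of the latter were named. Other genes named as a partner of a pair, for few counts or for groups that did not overlap were chosen after their values were seen. Members and lists were chosen with earlier results of these data known.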

Additional observations from a re-analysis of the deposited data

Results flagged for a closer look

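In a group of 4 to 10 libraries, the highest or lowest value was compared with its nearest neighbour against the range of the group (Dixon's test), which chance alone meets in about 1 in 20 groups. Of 138 groups, 5 met it. Actn4 in SP12wk had its lowest value in replicate 2, at 63.7 CPM or 1 count, with the nearest library at 449.6 CPM. Tuba1b in SP12wk was lowest in replicate 3, at 301 CPM or 6 counts, with the nearest at 637 CPM. Arpc1a in SAL was highest in replicate 5, at 263 CPM or 86 counts, with the nearest at 164 CPM. Tubb5 in SAL was highest in replicate 1, at 35.1 CPM or 13 counts, with the nearest at 18.3 CPM. Respiratory chain subunits in PRL took the largest share of counts in replicate 4, at 14.6%, with the nearest at 12.5%.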

How the results depend on the processing

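In experiment 1 the median standard error of a cytoskeleton log2 fold change was 0.71 to 0.79, beside 0.26 in experiment 2. Depth, group size, sex, flow cell, photoperiod history and injection all differed between the experiments, and the part of each was not tested. Of 583 alternative values for single fold changes, 577 kept direction and side of the threshold, 5 changed sign and 1 passed the test, which was Myl12a in SP28wk against LP without LP replicate 4. The number of cytoskeleton genes called was 0 in 83 of 85 alternatives, and 0 to 1 with libraries left out in SP28wk against LP and in the F test. The cause of the changes was not tested.

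All genes called in SP12wk against LP numbered 1, and 0 with sums over transcripts, DESeq2, no filter or a stricter filter, and 0 to 8 with libraries left out. In SP28wk against SP12wk 7 became 0 with sums, 2 with DESeq2, 2 with the stricter filter and 2 to 11 with libraries left out, and the cytoskeleton median became −0.12 with DESeq2. In SP28wk against LP 11 became 0, 2, 5 and 8 to 54 in the same order. In PRL against SAL 0 became 1 with sums, 92 with no filter and 0 to 44 with libraries left out, when the cytoskeleton median was 0.0072 to 0.092.

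With the replicate block the genes called became 0 in SP12wk against LP and 94 in PRL against SAL, and no cytoskeleton gene was called. Libraries of the same number correlated at −0.095 to 0.171 in experiment 1 and −0.146 to 0.202 in experiment 2, so the numbers were not taken as pairs.

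With libraries left out, SP12wk against LP ran from −0.067 to 0.23 for Actb, −0.14 to 0.17 for Actg1 and −0.11 to 0.57 for Tmsb4x, and PRL against SAL from −0.094 to 0.0024 for Actb. Summed over transcripts, several of which carry identical counts so that a read may count more than once, the shares in LP, SP12wk, SP28wk, SAL and PRL were 76.96%, 76.2%, 81.6%, 74.7% and 73.3% for Actg1, 72.5%, 45.4%, 39.4%, 38.3% and 44.99% for Myh9, and 26.8%, 29.2%, 35.2%, 37.1% and 37.1% for Tuba1b. For Tmsb10 they were 20.03%, 29.7%, 52.6% and 58.3% in the last 4 groups.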
